A study of Arabidopsis thaliana with 16 samples.

Results

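The 9 clade A type 2C protein phosphatases (PP2Cs) of Arabidopsis thaliana are the core negative regulators of signalling by abscisic acid (ABA), the hormone of drought, seed dormancy and cold acclimation. They were chosen by locus code as ABI1, ABI2, HAB1, HAB2, AHG1, PP2CA, HAI1, HAI2 and HAI3, and all 9 are among the 27416 genes of the deposited count table. The rule uses no measured value, but the choice was made with earlier results of these data known. Of the 9, 6 passed the filter on low counts and are among the 18419 genes tested. AHG1, HAI2 and HAI3 did not pass it and are described by their counts.

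The libraries come from whole seedlings grown on agar plates at 22 °C in a cycle of 16 h light and 8 h dark. Seedlings 13 d old received ethanol vapour for 1 d (EtOH_1d, 4 libraries used), and seedlings 11 d old received it for 3 d (EtOH_3d, 4 libraries). Each duration had a control under the unexplained label moc (moc_1d and moc_3d, 3 libraries each). Duration and age at the start of exposure therefore cannot be told apart. The series title names freezing, but no label gives a cold step. The labels name no genotype. Whether replicates grew on separate plates is not stated, so the spread behind each p-value may be partly or wholly technical. In RNA from whole seedlings, fewer cells of a type and less RNA per cell cannot be told apart.

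ABA is bound by soluble receptors of the PYR/PYL/RCAR family. The receptor with its hormone closes over the active site of a clade A PP2C and blocks it. Without the hormone, the phosphatase keeps SnRK2 protein kinases dephosphorylated and inactive. Once freed, the kinases phosphorylate ABF transcription factors and ion channels, among other substrates. Several of the phosphatase genes are themselves switched on by ABA, a known negative feedback, so their transcripts are often read as a gauge of ABA signalling.

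The phosphatases share a catalytic core, and the stretch shown here is the one that holds the glycine changed in abi1-1, the dominant ABA-insensitive allele of ABI1. Each line gives 39 coding bases from the TAIR10.1 genome sequence, 5′ to 3′, with the codon of that glycine, or the codon aligned to it, in capitals. In every gene the stretch crosses an exon boundary, and the exons are joined here without the intron.
ABI1: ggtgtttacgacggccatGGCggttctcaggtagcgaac
ABI2: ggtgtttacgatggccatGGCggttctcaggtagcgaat
HAB1: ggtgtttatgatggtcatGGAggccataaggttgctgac
HAB2: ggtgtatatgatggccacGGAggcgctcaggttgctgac
AHG1: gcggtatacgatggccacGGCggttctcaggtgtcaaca
PP2CA: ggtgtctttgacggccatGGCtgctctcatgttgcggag
HAI1: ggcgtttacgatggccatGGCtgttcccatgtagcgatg
HAI2: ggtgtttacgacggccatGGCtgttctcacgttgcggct
HAI3: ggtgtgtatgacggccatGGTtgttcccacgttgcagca
In ABI1 this is codon 180, in ABI2 codon 168 and in PP2CA codon 145. Of the 39 bases, 17 are the same in all 9 genes. Over the 36 pairs of genes, 22 to 37 bases were shared, and ABI1 and ABI2 formed the closest pair. The codon in capitals is GGC, GGA or GGT, all of which encode glycine. This likeness bears on the counts, because near-identical transcripts can exchange reads. Over the last 500 nt of the transcripts, where 3′ reads fall, no member had another counted locus with at least 100 nt at 95% identity. The match with the most identical nt was between HAB1 and HAB2, 336 of 490 aligned nt (68.6%). ABI1 and ABI2 shared 119 of 141 aligned nt (84.4%). Shorter matches had a higher identity, HAI2 with HAI3 at 62 of 71 nt (87.3%) and PP2CA with AT5G07810 at 29 of 33 nt (87.9%).

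The promoters of ABI1 and PP2CA are shown because these are the members whose counts separated groups of libraries. Both are the 250 bases before the annotated gene start in TAIR10.1, on the minus strand, written 5′ to 3′ and ending next to the gene. They lie at chr4:13222377-13222626 for ABI1 and chr3:3585851-3586100 for PP2CA. Capitals mark ACGTG read on either strand (CACGT on the opposite strand), the core of the ABA-responsive element to which ABF factors bind, with overlapping matches joined into a single site.
ABI1: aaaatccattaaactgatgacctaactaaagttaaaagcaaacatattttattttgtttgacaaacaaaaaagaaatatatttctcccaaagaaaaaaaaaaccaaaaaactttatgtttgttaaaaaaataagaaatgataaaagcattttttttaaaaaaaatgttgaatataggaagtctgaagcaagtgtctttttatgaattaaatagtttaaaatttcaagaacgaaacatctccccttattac
PP2CA: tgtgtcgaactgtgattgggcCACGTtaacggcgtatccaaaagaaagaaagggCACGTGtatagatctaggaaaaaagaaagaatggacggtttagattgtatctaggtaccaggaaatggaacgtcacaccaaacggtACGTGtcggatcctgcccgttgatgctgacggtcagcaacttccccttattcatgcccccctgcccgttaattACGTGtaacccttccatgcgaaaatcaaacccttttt
The PP2CA window holds 4 such sites, the match farthest from the gene starting 229 bases and the nearest 37 bases before the gene. The ABI1 window holds none, which says only that these letters are not in it. Among the other members, HAI2 has 4 sites, HAB2 and HAI3 have 2 each, HAB1 and AHG1 have 1 each, and ABI2 and HAI1 have none. In all, 6 of the 9 windows hold at least 1 site and 4 hold at least 2. Of 26709 annotated promoters cut the same way, 23.1% hold at least 1 and 5.07% at least 2. A match in the letters is not evidence of binding, and none was measured here.

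Total counts per library ranged from 3695511 to 15943927, and the EtOH_3d libraries, at 3695511 to 6340751, were the shallowest group. A library labelled moc_1d and another labelled moc_3d held identical counts, and both were left out. Values are counts scaled to a common library size (CPM), with libraries scaled by the trimmed mean of M-values (TMM). A count of 3 corresponds to between 0.186 and 0.806 CPM in these libraries, and counts of untested members carry counting error of that order. Photosynthetic leaf markers summed to means between 70984 and 71905 CPM in the 4 groups, root markers to between 158 and 170 CPM and guard cell markers to between 39.3 and 43.9 CPM. Seed markers, the genes of storage proteins and late embryogenesis, summed to between 0.734 and 1.02 CPM, and none of the 7 passed the filter. Of the tested markers, 1 was called in the 5 comparisons. TIP2-3, a root aquaporin gene, fell between the ethanol groups (-0.63 ± 0.17, adjusted p = 0.0496), a call lost in 14 of 21 alternatives.

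None of the 6 tested phosphatase genes was called as changed by ethanol or by duration at an adjusted p under 0.05 (edgeR's quasi-likelihood test with Benjamini-Hochberg adjustment over 18419 genes), and DESeq2 also called 0 in each of the 5 comparisons. The share of all tested genes that passed was 0% for ethanol at 1 d, 0.554% for ethanol at 3 d and 0.0434% for the difference between these responses. It was 0.842% between the control groups and 1.00% between the ethanol groups of the 2 durations. At an unadjusted p under 0.05, 0 of the 6 members passed for ethanol at 1 d, at 3 d and between the controls, against 4.32%, 8.82% and 9.34% of all tested genes. ABI1 passed for the difference between responses, against 5.56%, and ABI1 and PP2CA passed between the ethanol groups, against 10.2%. Summed over the 9 members, the level at 1 d was 117 ± 5.17 CPM (SD, n = 3) in the controls and 127 ± 7.86 CPM (n = 4) with ethanol. At 3 d it was 121 ± 11.4 CPM (n = 3) and 126 ± 10.06 CPM (n = 4). The single libraries ran from 109 to 139 CPM, and the groups overlapped.

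**Figure D1:**
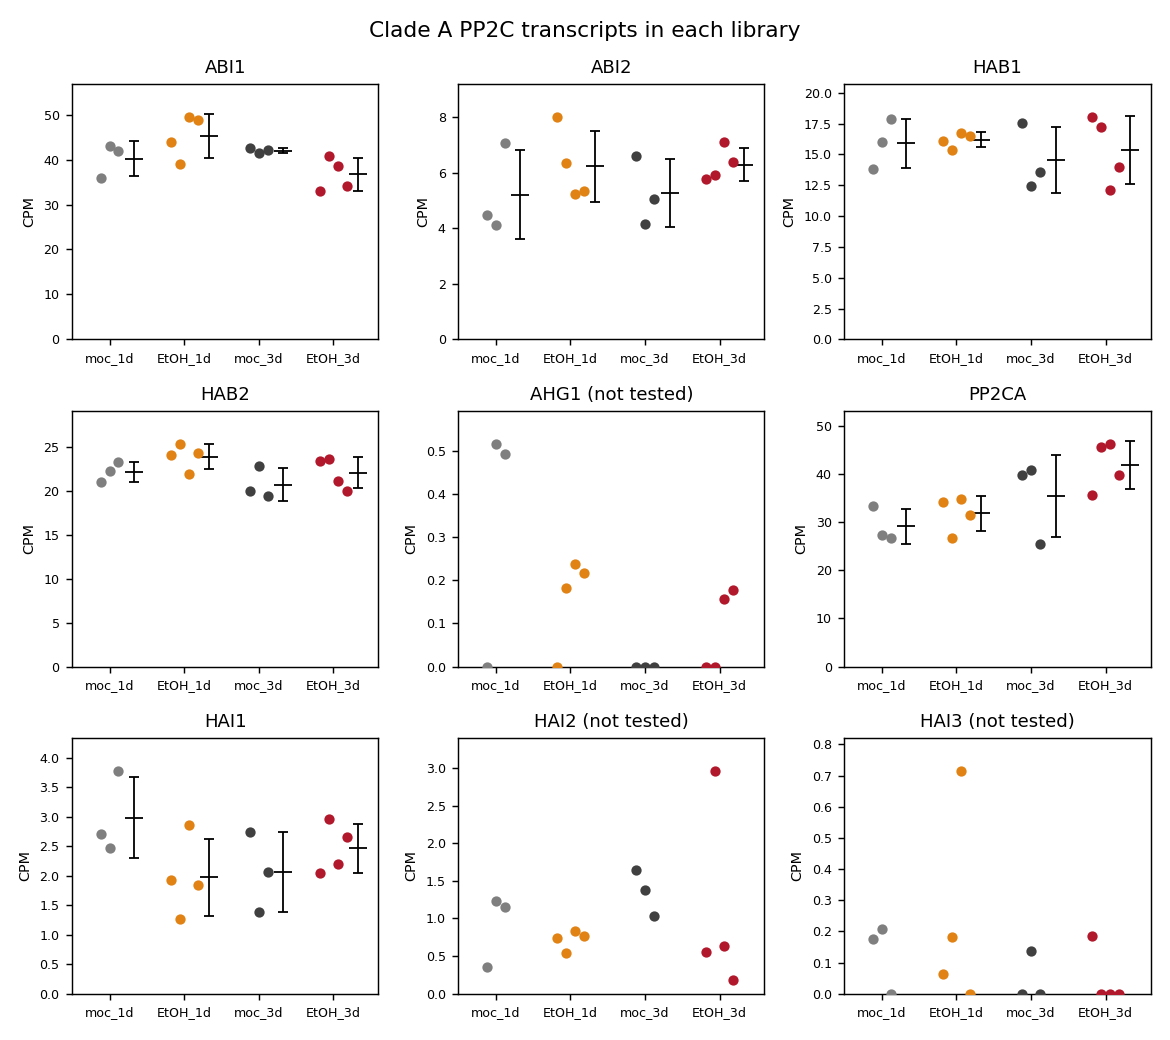
Level of each of the 9 clade A PP2C genes in CPM in every library, by group. Points are libraries, and the horizontal tick with its bar gives the mean and SD for the 6 tested genes. ABI1 in EtOH_3d lies between 33.1 and 40.8 CPM, below all 3 moc_3d libraries, and PP2CA in EtOH_3d lies between 35.7 and 46.2 CPM, above all 4 EtOH_1d libraries.

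ABI1 (AT4G26080, chr4:13219915-13222376, minus strand), the founding member and a broad repressor of ABA responses, measured 35.9, 43.0 and 41.8 CPM in moc_1d and 43.8, 39.1, 49.5 and 48.8 CPM in EtOH_1d. It measured 42.6, 41.4 and 42.0 CPM in moc_3d and 33.1, 40.8, 38.6 and 34.2 CPM in EtOH_3d. At 1 d the groups overlapped, while at 3 d all 4 ethanol libraries lay below all 3 controls, which lay within 41.4 to 42.6 CPM. The log2 fold change with ethanol was 0.18 ± 0.10 (SE) at 1 d (adjusted p = 0.9996) and -0.20 ± 0.10 at 3 d (adjusted p = 0.585). The difference between the responses was -0.38 ± 0.14 on the log2 scale, with a 95% interval of -0.66 to -0.10 (unadjusted p = 0.00867, adjusted p = 0.703, edgeR). That p ranked 222nd among the 18419 genes. Between the ethanol groups ABI1 measured 0.31 less on the log2 scale at 3 d than at 1 d (log2 fold change -0.31 ± 0.09, 95% interval -0.50 to -0.13, adjusted p = 0.0896), and the libraries overlapped. It passed the threshold in that comparison when EtOH_1d replicate 2 was left out (-0.37, adjusted p = 0.0450). Between the controls it was 0.07 ± 0.10. These comparisons share libraries and are not independent of each other.

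The last 22 bases of ABI1 overlap the end of MEK1 (AT4G26070), a MAP kinase kinase gene on the opposite strand. Whether the counting used strand is not known here, so reads of that overlap cannot be assigned with certainty. MEK1 itself measured 4.52 to 12.6 CPM, and its log2 fold change with ethanol was -0.25 ± 0.20 at 1 d and 0.02 ± 0.21 at 3 d. No other member overlaps a counted gene.

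ABI2 (AT5G57050, chr5:23087122-23089631, plus strand), the closest relative of ABI1 and partly redundant with it, ran from 4.12 to 8.01 CPM over the 14 libraries. Its mean was 5.21 CPM in moc_1d against 6.22 CPM in EtOH_1d, and 5.26 CPM in moc_3d against 6.29 CPM in EtOH_3d. The ethanol mean was the higher at both durations, but the libraries overlapped at each. The log2 fold change was 0.33 ± 0.22 at 1 d, with a 95% interval of -0.12 to 0.78, and 0.29 ± 0.25 at 3 d, with an interval of -0.21 to 0.78. The intervals hold no change, falls to 0.918-fold at 1 d and 0.865-fold at 3 d, and rises of up to 1.71-fold and 1.72-fold.

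HAB1 (AT1G72770, chr1:27389948-27393327, plus strand), a nuclear and cytosolic repressor of the pathway and the phosphatase used in many receptor structures, ran from 12.1 to 18.04 CPM. The highest and the lowest of these libraries were both EtOH_3d. Its log2 fold change with ethanol was 0.04 ± 0.14 at 1 d and 0.08 ± 0.16 at 3 d. HAB2 (AT1G17550, chr1:6034270-6037398, plus strand), its closest relative, varied least of the 6 tested members over the libraries, with a ratio of 1.31 between its highest and lowest library (25.3 and 19.4 CPM). Its log2 fold change was 0.11 ± 0.11 at 1 d and 0.08 ± 0.12 at 3 d. The 95% interval at 3 d, from -0.17 to 0.33, leaves room for a fall to 0.890-fold or a rise of up to 1.26-fold.

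PP2CA (AT3G11410, chr3:3583782-3585850, minus strand), also known as AHG3, a repressor of ABA responses in seeds and guard cells, measured 33.4, 27.2 and 26.7 CPM in moc_1d and 34.1, 26.8, 34.9 and 31.5 CPM in EtOH_1d. It measured 39.7, 40.8 and 25.5 CPM in moc_3d and 35.7, 45.7, 46.2 and 39.7 CPM in EtOH_3d. All 4 EtOH_3d libraries lay above all 4 EtOH_1d libraries, whereas each ethanol group overlapped its own control. Its lowest value of all, 25.5 CPM, came from moc_3d replicate 4, while the other moc_3d libraries lay among those of EtOH_3d. The log2 fold change was 0.13 ± 0.13 with ethanol at 1 d (adjusted p = 0.9996) and 0.25 ± 0.13 at 3 d (adjusted p = 0.620). The 3 d value was 0.05 without moc_3d replicate 4 and 0.38 without moc_3d replicate 2, and the 1 d value was 0.25 without moc_1d replicate 2 and 0.08 without either of the other moc_1d libraries. Between the ethanol groups it was 0.38 ± 0.12, with a 95% interval of 0.13 to 0.63 (unadjusted p = 0.00432, adjusted p = 0.169). Between the controls it was 0.26 ± 0.14 (adjusted p = 0.591). In the comparison of the ethanol groups PP2CA passed the threshold with no filter on low counts (adjusted p = 0.0172) and without moc_3d replicate 4 (adjusted p = 0.0431). That library belongs to neither group compared, and enters through the shared fit.

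AHG1 (AT5G51760, chr5:21026805-21029188, plus strand), which acts mainly in seeds and is known for resisting inhibition by the receptors, was barely counted. It had 0, 5 and 3 counts in moc_1d, 0, 1, 2 and 2 in EtOH_1d, 0 in each of the 3 moc_3d libraries and 0, 0, 1 and 1 in EtOH_3d. That is 15 counts in 14 libraries, 7 of which had none. The 0 counts of moc_3d allow up to 0.147 CPM over the group, counting error only. With no filter on low counts, the comparison between the controls gave AHG1 an unadjusted p of 0.0204 and an adjusted p of 0.465 (edgeR), and no fold is given for counts this low.

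The HAI genes, highly ABA-induced phosphatases named for their response to the hormone, had few counts. HAI1 (AT5G59220, chr5:23894404-23896939, minus strand), the only tested member of the 3, measured 2.71, 2.47 and 3.77 CPM in moc_1d and 1.92, 1.27, 2.85 and 1.85 CPM in EtOH_1d. It measured 2.74, 1.38 and 2.07 CPM in moc_3d and 2.05, 2.96, 2.21 and 2.66 CPM in EtOH_3d. The groups overlapped at both durations. These values rest on 7 to 31 counts a library, and the intervals are wide. The log2 fold change with ethanol was -0.54 ± 0.33 at 1 d (95% interval -1.21 to 0.13) and 0.26 ± 0.39 at 3 d (-0.52 to 1.04). The difference between the responses, 0.80 ± 0.51, had an adjusted p of 0.943.

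HAI2 (AT1G07430, chr1:2280746-2282828, minus strand) had 98 counts in all, from 1 to 12 a library. Its counts were 4, 12 and 7 in moc_1d, 12, 3, 7 and 7 in EtOH_1d, 9, 10 and 8 in moc_3d and 3, 11, 4 and 1 in EtOH_3d. EtOH_3d replicate 2, the shallowest library, stood above the other 3 of its group, at 2.96 CPM against 0.177 to 0.630 CPM. HAI3 (AT2G29380, chr2:12608675-12610350, plus strand) had 14 counts in all, 6 of them in EtOH_1d replicate 3, and none in 7 libraries. With no filter on low counts, none of these untested members was called in any of the 5 comparisons.

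**Figure D2:**
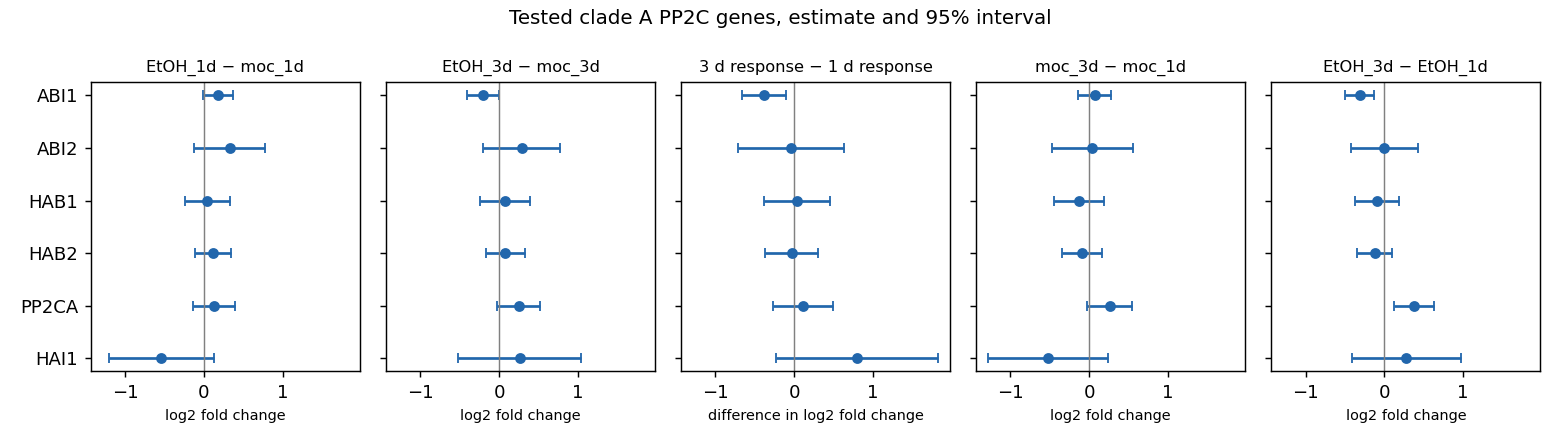
Log2 fold change of the 6 tested clade A PP2C genes (points) with 95% intervals (bars) in 4 comparisons of groups, and the difference in log2 fold change between the 3 d and 1 d responses in the middle panel. The interval excludes 0 for ABI1 in the difference of responses (-0.66 to -0.10) and for ABI1 (-0.50 to -0.13) and PP2CA (0.13 to 0.63) between the ethanol groups, and no member passed after adjustment over all genes.

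Groups that do not overlap are common in these small designs. For ethanol at 1 d, 0 of the 6 tested members had groups that did not overlap, against 6.12% of all tested genes. At 3 d it was 1 of 6, ABI1, against 7.75%. Between the controls it was 0 of 6 against 15.7%, and between the ethanol groups 1 of 6, PP2CA, against 5.90%. With 6 members these shares cannot be told from the background. The members' median log2 fold change was 0.12 for ethanol at 1 d and 0.17 at 3 d, with 5 of the 6 above 0 each time, beside 0.00 for all tested genes in both comparisons. The member below 0 was HAI1 at 1 d and ABI1 at 3 d. Between the controls the median was -0.03 and between the ethanol groups -0.05, beside 0.00 for all tested genes.

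ABI1 and PP2CA, the members with the most counts, leaned apart in EtOH_3d. This pair was singled out after its values were seen, so the ratio is given as a description with no test. The log2 ratio of PP2CA counts to ABI1 counts within a library was -0.11, -0.66 and -0.65 in moc_1d and -0.36, -0.55, -0.51 and -0.63 in EtOH_1d. It was -0.10, -0.02 and -0.72 in moc_3d and 0.11, 0.16, 0.26 and 0.21 in EtOH_3d. The 4 EtOH_3d libraries were those with more counts of PP2CA than of ABI1, and the other 10 libraries had fewer. Since both counts come from the same library, the scaling between libraries does not enter the ratio. The group means were -0.47 ± 0.32, -0.51 ± 0.11, -0.28 ± 0.38 and 0.19 ± 0.06 (SD, n = 3, 4, 3 and 4). The moc_3d group was split, with 2 libraries near 0 and replicate 4 the lowest of all 14.

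**Figure D3:**
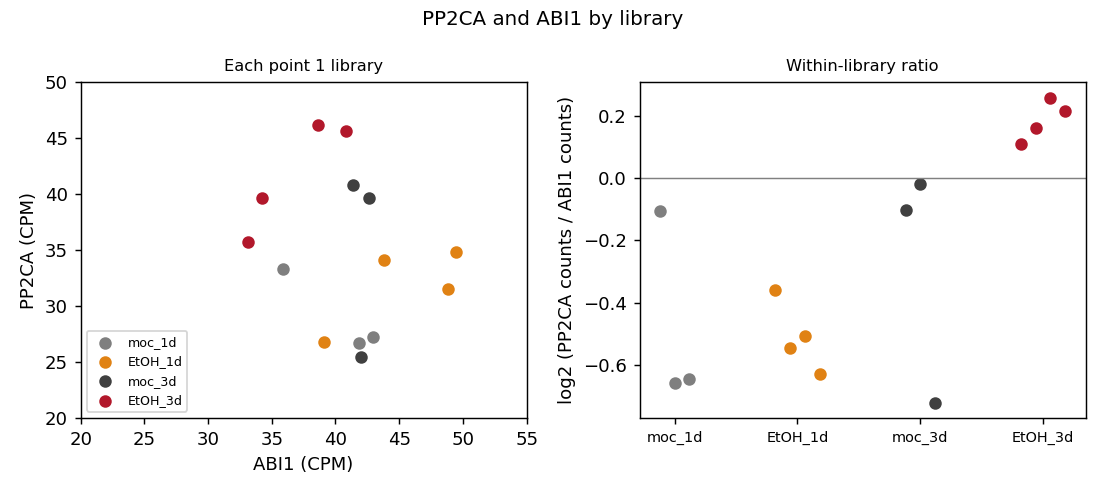
PP2CA against ABI1 in CPM (left) and the log2 ratio of their counts within each library by group (right), each point being 1 library. The 4 EtOH_3d libraries have ratios from 0.11 to 0.26 and the other 10 lie below 0, moc_3d from -0.72 to -0.02.

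No pair of phosphatase genes was shown to vary together from library to library. Over the 14 libraries the Pearson correlation between members, on log2 CPM, ran from -0.38 (HAB2 with HAI1) to 0.40 (HAB1 with HAI1) over 15 pairs. None passed after Benjamini-Hochberg adjustment over the 15 pairs (two-sided permutation test, smallest adjusted p = 0.776), for Pearson's r or for Spearman's rho. The permutation exchanged libraries across groups, so differences between groups enter these correlations. Correlations within groups were not computed. ABI1 with PP2CA gave r = -0.22 (permutation p = 0.4445) and rho = -0.33 (permutation p = 0.2457). Without the 2 libraries farthest from the median of ABI1, r was -0.12.

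Genes whose level followed a member most closely over the 14 libraries were picked as the highest Pearson correlations among 14360 genes with a mean of at least 5 CPM, so they are high by choice. The 14 libraries share a scaling, and the correlations are descriptions without a test. HAB2 was closest to NHX1 (AT5G27150, r = 0.950), a vacuolar sodium/proton exchanger, and to SCR (AT3G54220, r = 0.847), a transcription factor of the root endodermis. ABI1 was closest to PCK1 (AT4G37870, r = 0.855), a phosphoenolpyruvate carboxykinase, and to SINAT2 (AT3G58040, r = 0.814), a RING ubiquitin ligase. HAB1 was closest to PPH (AT5G13800, r = 0.831), the pheophytinase of chlorophyll breakdown, and to AT3G55350 (r = 0.8286). PP2CA was closest to AT3G19680 (r = 0.893) and AT4G02540 (r = 0.881). ABI2 was closest to NLA (AT1G02860, r = 0.789), a ubiquitin ligase of nutrient responses, and to AT5G37690 (r = 0.785).

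Upstream of the phosphatases, 9 of the 14 ABA receptor genes were tested. At 1 d of ethanol none was called, and 8 of the 9 log2 fold changes were below 0, with a median of -0.09. The smallest p belonged to PYL7 (0.27 ± 0.12) and PYL8 (-0.17 ± 0.09). At 3 d PYR1 rose, from 49.8, 51.9 and 56.3 CPM in moc_3d to 76.1, 67.2, 65.1 and 63.8 CPM in EtOH_3d, and the groups did not overlap. Its log2 fold change was 0.37 ± 0.09 (adjusted p = 0.0288, edgeR). The moc_3d mean of PYR1, 52.6 CPM, was the lowest of the 4 groups, beside 64.1 CPM in moc_1d, 63.2 CPM in EtOH_1d and 68.0 CPM in EtOH_3d. Between the controls PYR1 gave -0.28 ± 0.09 (adjusted p = 0.198) with no overlap, and between the ethanol groups 0.11 ± 0.08 (adjusted p = 0.698) with overlap. At 3 d 7 of the 9 receptors were above 0, with a median of 0.17. PYR1 was no longer called in 5 of 21 alternative analyses, namely the 16 columns as labelled (adjusted p = 0.220), the identical library kept as moc_3d (0.174), and the fits without moc_3d replicate 1 (0.202), moc_3d replicate 2 (0.132) or EtOH_3d replicate 1 (0.150). PYL5, with 0.35 ± 0.11 at 3 d (adjusted p = 0.179), rose between the ethanol groups, from 37.6, 34.01, 32.5 and 27.9 CPM in EtOH_1d to 56.2, 43.8, 45.4 and 44.7 CPM in EtOH_3d (0.52 ± 0.10, adjusted p = 0.00105), and was called in 21 of 21 alternatives. The root marker TIP2-3 fell in the same comparison, where the 7 root markers had a median of -0.07 and 2 of them were above 0. The part of TIP2-3 in the result was not tested.

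Downstream, all 10 SnRK2 kinase genes were tested and none was called. The ABA-activated kinases SNRK2.2, SNRK2.3 and SNRK2.6 gave 0.02 ± 0.07, 0.06 ± 0.09 and -0.03 ± 0.17 at 3 d. The smallest p at 3 d belonged to SNRK2.8 (0.56 ± 0.19, adjusted p = 0.267) and SNRK2.9 (0.30 ± 0.14), and at 1 d to SNRK2.7 (1.13 ± 0.57) and SNRK2.9 (0.25 ± 0.13). SNRK2.7 was low, at 0.164 to 1.24 CPM in moc_1d and 1.30 to 1.63 CPM in EtOH_1d, and gave -1.17 ± 0.72 at 3 d. Of the 10 ABF and ABI transcription factor genes 7 were tested and none was called, with medians of 0.02 at 1 d and 0.22 at 3 d. AREB3 (0.47 ± 0.18) and ABF4 (0.31 ± 0.13) had the smallest p at 3 d, and ABF1 (0.16 ± 0.09) and ABF2 (0.15 ± 0.16) at 1 d. ABF1, ABF4, AREB3, SNRK2.3, SNRK2.8 and PYL7 overlap, or may share reads with, another counted gene, so their values are uncertain to that extent. Genes of proteins that regulate the phosphatases, such as PUB12, PUB13, BPM3 and EAR1, were all tested (7 of 7), and none was called. BPM3, a substrate adaptor for ubiquitination of PP2CA, gave -0.36 ± 0.13 at 3 d (adjusted p = 0.280), PUB12 gave -0.46 ± 0.25 at 1 d, and EAR1 gave -0.10 ± 0.07 at 1 d and -0.08 ± 0.08 at 3 d.

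ABA target genes, the transcripts that rise with the hormone, were tested for 22 of 23. At 1 d none was called and 17 of the 22 log2 fold changes were above 0, with a median of 0.23. XERO2 (0.27 ± 0.08) and COR47 (0.18 ± 0.06), both dehydrins, had the smallest p there. Between the controls, which share the moc_1d libraries, 18 of the 22 were above 0, with a median of 0.32. Summed over the list, the mean was 1025 CPM in moc_1d, 1233 CPM in EtOH_1d, 1253 CPM in moc_3d and 1236 CPM in EtOH_3d, so moc_1d had the lowest sum. Abundant genes weigh most in that sum, such as KIN2 and COR47, with means of 288 and 313 CPM in moc_1d. At 3 d 16 of the 22 were below 0, with a median of -0.15, and 2 fell. CYP707A3, an ABA 8′-hydroxylase that breaks the hormone down, fell from 11.5, 8.44 and 5.17 CPM in moc_3d to 1.49, 2.15, 4.10 and 4.43 CPM in EtOH_3d, a log2 fold change of -1.39 ± 0.29 (adjusted p = 0.00619). LTP3, a lipid transfer protein, fell from a mean of 35.7 to 24.3 CPM (-0.54 ± 0.13, adjusted p = 0.0233). Both calls, and the direction of the list, changed when moc_3d replicate 1 was left out. Without that library CYP707A3 gave -1.11 (adjusted p = 0.145) and LTP3 -0.35 (adjusted p = 0.451), and 13 of the 22 targets were above 0, with a median of 0.02. CYP707A3 was also not called with the 16 columns as labelled (adjusted p = 0.0713) or the identical library kept as moc_3d (0.0550), and DESeq2 gave it no adjusted p. LTP3 was also not called with the 16 columns (0.0554), with the identical library kept as moc_1d (0.101), without EtOH_3d replicate 2, 3 or 4 (adjusted p = 0.0603, 0.104 and 0.0501) or with the replicate number as a block (0.0625). RD26, a NAC transcription factor induced by dehydration and ABA, rose between the controls (0.71 ± 0.16, adjusted p = 0.00842) and between the ethanol groups (0.50 ± 0.13, adjusted p = 0.0416). The first call was lost without moc_1d replicate 2 or 3 or moc_3d replicate 1 (adjusted p = 0.0547, 0.0671 and 0.0842), with the 16 columns (0.215) and with the identical library kept as moc_1d (0.0957). The second was lost without any of 6 ethanol libraries, all but EtOH_1d replicate 2 and EtOH_3d replicate 1 (adjusted p from 0.0978 to 0.182), and in the same other settings (0.0743 and 0.0693). TIP2-3 fell between the ethanol groups too, as for PYL5. Between the controls TIP2-3 was not called, with means of 13.1 CPM in moc_1d and 9.07 CPM in moc_3d. There the 7 root markers had a median of 0.03, and 4 of them were above 0. The part of TIP2-3 in the RD26 results was not tested.

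**Figure D4:**
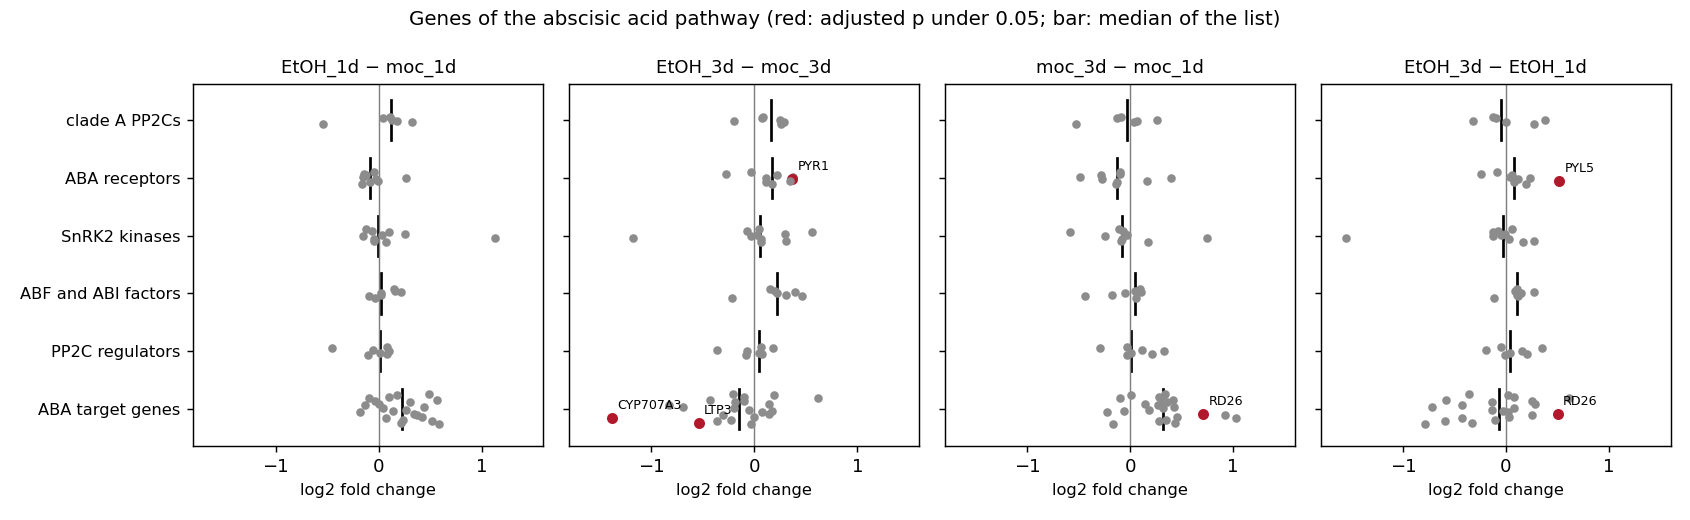
Log2 fold change of every tested gene in the 6 lists of the ABA pathway (points) with each list's median (vertical bar) in 4 comparisons. Genes with an adjusted p under 0.05 are in red and named, PYR1, CYP707A3 and LTP3 for ethanol at 3 d, RD26 between the controls, and PYL5 and RD26 between the ethanol groups, with none among the 6 phosphatases.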

How the data were processed

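The authors deposited whole-number read counts per gene for 16 libraries, with no normalization. Libraries were made by Lasy-Seq, a 3′ RNA sequencing method, from 200 ng of total RNA, per the labels' protocols. Reads were handled with HISAT2 and featureCounts on TAIR10, per the submitters' processing notes, which also name Trimmomatic, bcl2fastq and DESeq2. No source used here gives versions or the strand setting. The second deposited table, a signal that is counts divided by size factors, was not used.

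The 2 identical columns were left out, which leaves 14 libraries. Genes were filtered with filterByExpr, scaled by TMM and tested two-sided with edgeR 4.0.16 in R 4.3.3 (quasi-likelihood, robust, 4 groups together), with Benjamini-Hochberg adjustment over all 18419 genes and a threshold of 0.05. SEs were derived from the test statistic. The test was checked on simulated counts. Alternatives were DESeq2 1.42.0, another scaling (RLE), no filter on low counts, other uses of the identical library, a replicate block and leaving out each library.

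The members and lists were chosen with earlier results of these data known. Named are all members and, from each pathway list, genes with an adjusted p under 0.05 and the 2 with the smallest p in each ethanol comparison. SNRK2.2, SNRK2.3, SNRK2.6, PUB13 and KIN2 were named beside them after their values were seen. Locations and sequences come from RefSeq's TAIR10.1 by locus code. Transcript ends were compared with BLAST 2.17.0.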

Additional observations from a re-analysis of the deposited data

Results flagged for a closer look

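Of 18 groups of 4 libraries examined for the 9 members, 2 held a library far from the others of its group. By chance the cut-off flags about 1 group in 20 of normally distributed values, a rate that does not hold for counts this low. HAI2 measured 2.96 CPM in EtOH_3d replicate 2, from 11 counts, against 0.177 to 0.630 CPM in the other 3 libraries. HAI3 measured 0.186 CPM in EtOH_3d replicate 1, which is 1 count, against 0 in the other 3. A group with a count in only 1 library is always flagged.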

How the results depend on the processing

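Over 30 member values and 21 alternatives, 595 of 630 kept their direction and 35, from 10 of the 30 values, did not. No member was called in any alternative for 4 of the 5 comparisons. Between the ethanol groups 1 was called with no filter, and 0 to 1 when a library was left out (ABI1 without EtOH_1d replicate 2, PP2CA without moc_3d replicate 4). Reversals of log2 fold changes at settings other than a left-out library were small. With the identical library kept as moc_1d, ABI2 gave 0.0840 and HAB2 0.0167 for the difference of responses, and ABI2 gave -0.0854 between the controls. Between the ethanol groups ABI2 gave 0.00636 with DESeq2 and 0.000787 with RLE scaling. The replicate numbers did not pair the samples (correlations of same-numbered libraries from -0.0795 to 0.0320). With the replicate block HAB1 gave -0.0269 at 1 d, and ABI2 gave 0.134 for the difference, -0.0989 between the controls and 0.0352 between the ethanol groups. The block turned no member into a call.

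Leaving out a library moved ABI1 between the controls over -0.0151 to 0.123. The ranges for ABI2 were -0.270 to 0.145 (difference), -0.0778 to 0.182 (ethanol groups) and -0.133 to 0.268 (controls). Those for HAB1 were -0.0658 to 0.176 (difference), -0.0534 to 0.122 (1 d), -0.0235 to 0.218 (3 d) and -0.194 to 0.0110 (ethanol groups). HAB2 and PP2CA ranged over -0.0795 to 0.0503 and -0.0808 to 0.248 for the difference. The cause of these reversals was not tested.

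Counts of all genes called moved more. At 1 d 0 became 1 with DESeq2, 28 with no filter, 2 with the 16 columns or the library kept as moc_1d, 12 with the block and 0 to 5 with a library left out. At 3 d 102 became 196 with no filter, 66 with the 16 columns and 43 to 124 with a library left out. The difference went from 8 to 16, 47, 0 and 4 (DESeq2, no filter, 16 columns, kept as moc_1d) and 1 to 23. The controls went from 155 to 283, 5 and 19 (no filter, 16 columns, kept as moc_1d) and 67 to 158, and the ethanol groups from 185 to 313 (no filter) and 128 to 234. Depth limits AHG1, HAI2, HAI3 and HAI1, whose counts stayed at or below 31 a library.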
